A study of Sus scrofa with 36 samples.

Results

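KDM1B and 7 further histone lysine demethylase genes were followed in the thyroid gland of growing pigs with and without heat exposure. The 8 genes are KDM1B, KDM1A, KDM2A, KDM3A, KDM4A, KDM5B, KDM5C and KDM6B. They were taken from the array by name, as every probe that carries one of these symbols, which gave 22 of the 60305 probes. They are 8 of the 14579 genes that the array names. The set was selected on the measured heat change of a KDM1B probe in these same pigs, so every difference between temperatures below is a description and supports nothing. The comparisons between breeds and the interaction of breed and temperature did not enter that choice and were tested. The genes and gene lists were, however, chosen with earlier results of these data known. The p values below are therefore not those of comparisons fixed before the data were seen.

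All 36 pigs were castrated males, and each thyroid was hybridized to its own array with a single dye. The breeds were Creole (CR), Large White (LW) and their F1 cross, with 12 pigs of each. By label 18 pigs were kept at 24 °C and 18 at 30 °C, so that each combination of breed and temperature holds 6. The submitters' protocol instead gives 32 °C for 5 days as the hot condition and says that the cool pigs were slaughtered before it and the others after. Temperature and time of slaughter therefore cannot be told apart. Related pigs were treated as independent, since the labels name no parents or pens. The study describes blocks of littermates within each breed, so the p values between breeds may be too small.

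Histone lysine demethylases remove methyl groups from the tails of histones and so change how readily the DNA wound around them is read. KDM1B and KDM1A belong to the flavin-dependent amine oxidases, which use FAD, a cofactor made from riboflavin, and remove methyl groups from mono- and dimethylated lysine 4 of histone H3. The other genes encode JmjC enzymes, which need iron, oxygen and 2-oxoglutarate and between them act on several lysines of histone H3. KDM1B is best known from oocytes, where it clears lysine 4 methylation before maternal imprints are set, and KDM1A from the CoREST repressor complex.

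KDM1B had 3 probes. The array lists A_72_P476198 at base 2406 of a KDM1B transcript and A_72_P179526 at base 4238 of another, while O4851, of a second design series, has no listed position. A pair of them is shown because its members are mirror images of each other. Each is 60 bases long, and capitals mark the 59 bases that one shares with the reverse complement of the other.
A_72_P476198: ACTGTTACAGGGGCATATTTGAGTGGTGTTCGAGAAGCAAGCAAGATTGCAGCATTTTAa
O4851: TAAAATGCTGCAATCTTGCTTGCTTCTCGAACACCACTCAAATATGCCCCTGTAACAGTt
O4851 reversed and complemented: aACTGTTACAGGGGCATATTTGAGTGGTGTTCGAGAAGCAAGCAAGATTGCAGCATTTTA
Read from its first base, A_72_P476198 gives 19 codons with no stop and then a stop codon as codon 20, as at the end of a coding sequence. Taken with the listing of A_72_P476198 on a KDM1B transcript, O4851 is therefore written as the strand opposite to the KDM1B mRNA. The labelling used here makes dyed RNA complementary to the RNA of the tissue, so a probe with the letters of an mRNA captures the product of that mRNA, and a probe with the opposite letters captures the product of RNA from the other strand. The files name no genome build, and no chromosome position is given for any probe.

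The KDM1B probe that moved with heat was O4851, the one whose listed letters are those of the opposite strand. Its normalized log2 intensity was 8.71 ± 0.14 in the pigs kept at 24 °C and 9.11 ± 0.17 in those at 30 °C (SD, n = 18 each). The model gave a difference of 0.40 ± 0.05 (SE) on the log2 scale, a ratio of 1.32. In CR the 6 pigs at 24 °C ran from 8.43 to 8.97 with a median of 8.74, and the 6 at 30 °C from 8.88 to 9.20 with a median of 9.07. In F1 they ran from 8.49 to 8.82 with a median of 8.71, and from 8.84 to 9.40 with a median of 9.12. In LW they ran from 8.58 to 8.84 with a median of 8.72, and from 8.80 to 9.38 with a median of 9.15. The temperature groups did not overlap in F1, while 4 of the 6 hot CR pigs and 5 of the 6 hot LW pigs lay above the highest cool pig of their breed. All 18 hot pigs lay above the 24 °C mean of their own breed. Within CR the difference was 0.35, within F1 0.44 and within LW 0.41. The spot was well above background on all 36 arrays, and the difference was positive on each of the 5 slides, from 0.30 to 0.53.

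The mirror probe on the mRNA strand, A_72_P476198, gave a faint signal. Only 22 of the 36 arrays had it well above background, 8 of the 18 at 24 °C and 14 of the 18 at 30 °C. Its log2 intensity was 5.45 ± 0.12 at 24 °C and 5.58 ± 0.19 at 30 °C (SD, n = 18 each), a difference of 0.13 ± 0.05 (SE). CR pigs gave 0.17, F1 pigs 0.10 and LW pigs 0.13, and 8 of the 18 hot pigs lay above the highest cool pig of their breed. A signal this close to background understates any change.

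The other probe, A_72_P179526, was well above background on all 36 arrays and hardly differed between temperatures. Its log2 intensity was 8.08 ± 0.13 at 24 °C and 8.13 ± 0.14 at 30 °C (SD, n = 18 each), a difference of 0.05 ± 0.05 (SE). Within CR and F1 it was 0.09 each and within LW -0.02, and the groups overlapped in every breed, with 2 of the 18 hot pigs above the highest cool pig of their breed. As printed on the array each of its reading frames holds a stop codon, while 1 frame of the opposite strand is open. A_72_P476198 also has 1 open frame on its opposite strand, so open frames do not settle a strand. The strand of A_72_P179526 rests on the array's listing alone. Across the 36 arrays, O4851 correlated with A_72_P476198 at r = 0.40 and with A_72_P179526 at r = 0.20. After the mean of each of the 6 groups was subtracted, these values were 0.21 and 0.13. Whether the O4851 signal comes from RNA of the opposite strand or from a probe whose letters the array lists in the wrong orientation was not tested.

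**Figure D1:**
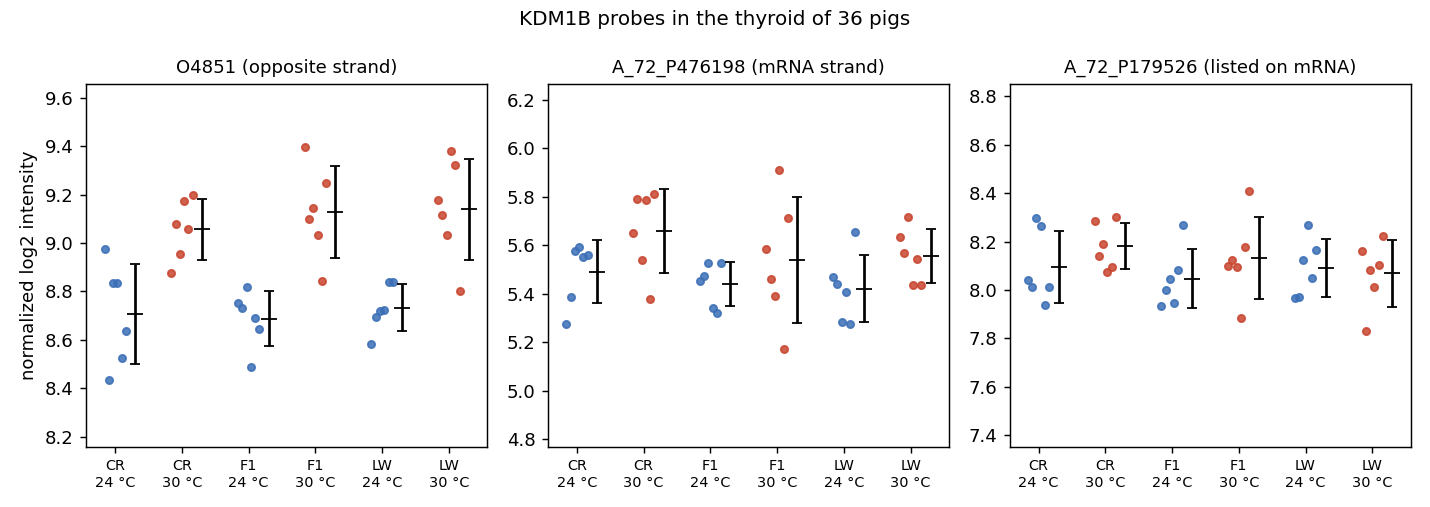
Normalized log2 intensity (vertical axis) of the 3 KDM1B probes in the 6 groups of breed and labelled temperature, 1 point per pig, with blue for 24 °C and red for 30 °C, and with the mean and SD as black bars (n = 6). Each panel spans the same range of log2 units, and the red points of O4851 sit higher than the blue ones in each breed while those of A_72_P179526 overlap them.

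O4851 was set beside the other probes of its design series that share a run of at least 40 bases with a probe of known transcript position. A total of 1226 such probes ran on the same strand as their partner and 55 on the opposite strand. Of the same-strand probes 1011 were well above background on all 36 arrays, which is 82.5%, and of the opposite-strand probes 31 were, which is 56.4%. O4851 is thus one of 31 mirrored probes with a signal on every array, while its own partner was well above background on 22. Among the 39 opposite-strand probes that could be tested, 1 was called for heat, and that probe is O4851. It was the call that brought KDM1B into view, so the count carries no weight.

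In the current pig gene list (assembly Sscrofa11.1), KDM1B lies between TPMT, a thiopurine methyltransferase, and DEK, a chromatin protein whose annotated span overlaps that of KDM1B. The 9 tested DEK probes differed between temperatures by -0.09 to 0.04, and their correlation with O4851 over the 36 arrays lay between -0.14 and 0.11. The 5 tested TPMT probes differed by 0.05 to 0.13, with correlations from 0.05 to 0.18. With the group means subtracted, the correlations ran from -0.13 to 0.25 for DEK and from -0.11 to 0.09 for TPMT, beside 0.21 for the mirror probe of O4851.

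KDM1B did not differ detectably between breeds on any of its probes. The log2 intensity of O4851 was 8.88 ± 0.25 in CR pigs, 8.91 ± 0.27 in F1 pigs and 8.94 ± 0.26 in LW pigs (SD over the 12 pigs of a breed). The difference of LW from CR was 0.05, with a 95% interval from -0.08 to 0.19 and an adjusted p of 0.663 (limma over all tested probes, Benjamini-Hochberg). F1 differed from CR by 0.03 (adjusted p = 0.886, limma) and from LW by -0.03 (adjusted p = 0.926, limma). The order CR, F1, LW is therefore no larger than the spread between pigs at either step. A_72_P179526 was 0.06 lower in LW than in CR, with an interval from -0.17 to 0.06, and A_72_P476198 was 0.09 lower, with an interval from -0.22 to 0.04. A_72_P476198 entered the tests through LW at 30 °C alone, where all 6 arrays had it well above background. In the other groups 2 to 4 of 6 arrays did, so its breed comparison carries little weight.

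Whether heat acted differently in the breeds was tested with the interaction term. For O4851 the adjusted p was 1 (limma, unadjusted p = 0.792), and the heat difference in LW exceeded that in CR by 0.06, with a 95% interval from -0.22 to 0.33. That interval reaches most of the way to the heat difference itself. After adjustment over all tested probes, even a gap between breeds about as large as the heat difference could have gone uncalled. Of the 19 member probes tested, 0 were called for the interaction, and 0 had an unadjusted p under 0.05. Over the whole array limma called 0 of 46222 probes, which is 0%, with 2157 at an unadjusted p under 0.05.

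For the 7 other genes 16 of 19 probes could be tested, because the other 3 were not well above background on enough arrays. The untested probes are O11085 of KDM4A on 0 of the 36 arrays, O12771 of KDM5B on 1 and O14550 of KDM5C on 5. O12771 also runs opposite to its neighbour on the gene, the KDM5B probe A_72_P299239: reversed and complemented, it matches that probe at 27 of 28 overlapping bases. Which of them has the letters of the KDM5B mRNA was not established.

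Between temperatures, 1 of the 19 member probes was called, beside 1.18% of all tested probes, and 6 had an unadjusted p under 0.05, beside 9.74%. Since O4851 was the reason for the choice, nothing is read from these counts. The 19 differences ran from -0.05 to 0.40 with a median of 0.04, and 15 of them were positive, while the median over all tested probes was 0.01. KDM1A, the nearest relative of KDM1B, had differences from -0.05 to 0.02 on its 3 probes. On its brightest probe, A_72_P115706, the cool pigs ran from 10.89 to 11.23 with a median of 11.06 and the hot pigs from 10.75 to 11.19 with a median of 11.04. These ranges overlap almost in full.

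KDM2A, which demethylates lysine 36 of histone H3 at CpG islands, was higher at 30 °C on all 4 of its probes, by 0.03 to 0.12. KDM4A, which acts on trimethylated lysines 9 and 36, differed by 0.02 on A_72_P305249 and by 0.20 ± 0.06 (SE) on A_72_P668107. The latter probe was singled out after its values were seen. Its cool pigs ran from 6.28 to 6.72 and its hot pigs from 6.25 to 7.05, and 12 of the 18 hot pigs lay above the highest cool pig of their breed. After O4851 it had the next largest difference among the member probes, and its 2 tested probes did not move alike.

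KDM6B, which removes methyl groups from lysine 27 of histone H3, differed by 0.09 ± 0.04 (SE) on its single probe, with cool pigs from 11.92 to 12.38 and hot pigs from 11.96 to 12.39. KDM3A, a lysine 9 demethylase known as a target of hypoxia signalling, differed by 0.01 on its single probe. KDM5B and KDM5C, which act on trimethylated lysine 4, differed by 0.01 and 0.07 on the 2 tested KDM5B probes and by -0.01 to 0.04 on the 3 tested KDM5C probes. Cool and hot pigs overlapped on each of these probes, with 1 to 8 of the 18 hot pigs above the highest cool pig of their breed.

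**Figure D2:**
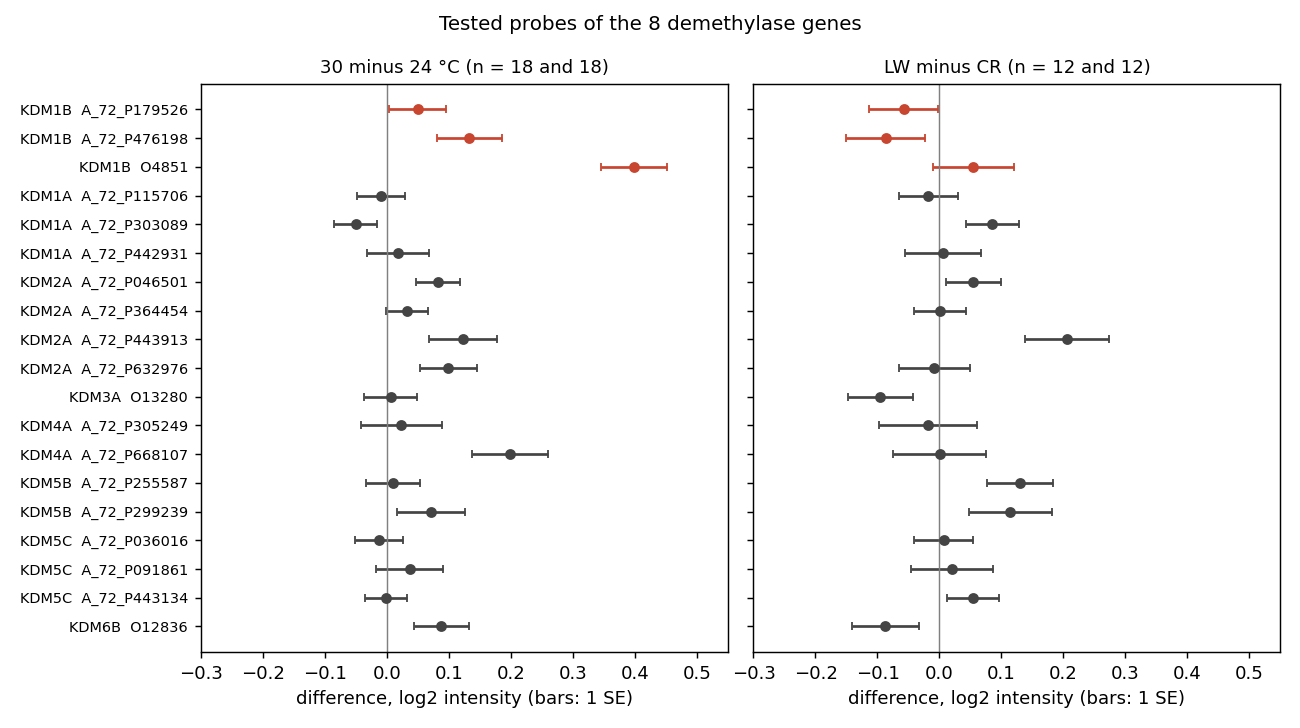
Difference in log2 intensity (horizontal axes, with bars of 1 SE) for the 19 tested probes of the 8 genes, between 30 and 24 °C on the left and between LW and CR on the right, with the KDM1B probes in red. On the left O4851 stands at 0.40 and A_72_P668107 of KDM4A at 0.20, and on the right A_72_P443913 of KDM2A stands furthest from 0 at 0.21.

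Between LW and CR pigs, 1 of the 19 member probes passed the test, beside 12.9% of all tested probes. That probe, A_72_P443913 of KDM2A, was named for this call. In CR it ran from 7.28 to 7.65 with a median of 7.36, in F1 from 7.13 to 7.80 with a median of 7.51, and in LW from 7.29 to 7.85 with a median of 7.58. The breeds overlap widely, with LW highest on average and F1 between the parents. LW exceeded CR by 0.21 ± 0.07 (SE; limma, adjusted p = 0.039). The LW pigs at 30 °C were the highest group, from 7.56 to 7.85, whereas those at 24 °C ran from 7.29 to 7.70. The excess of LW over CR was 0.21 to 0.29 on slides 1 to 4 and -0.04 on slide 5, which held 2 LW pigs at 24 °C and 1 CR pig at 30 °C. These slide values are plain differences of means, so they mix breed with temperature. The other 3 KDM2A probes differed by -0.01 to 0.05 and did not pass, so KDM2A as a gene was not shown to differ. The call was lost under 2 other scalings of the signal, with adjusted p values from limma of 0.0528 and 0.0645. It was also lost when any one of 13 pigs was left out, with adjusted p values from limma between 0.0504 and 0.0697. Those pigs were replicates 1, 2, 5 and 6 of CR at 24 °C, the same numbers of CR at 30 °C, replicate 3 of LW at 24 °C and replicates 2, 3, 5 and 6 of LW at 30 °C.

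**Figure D3:**
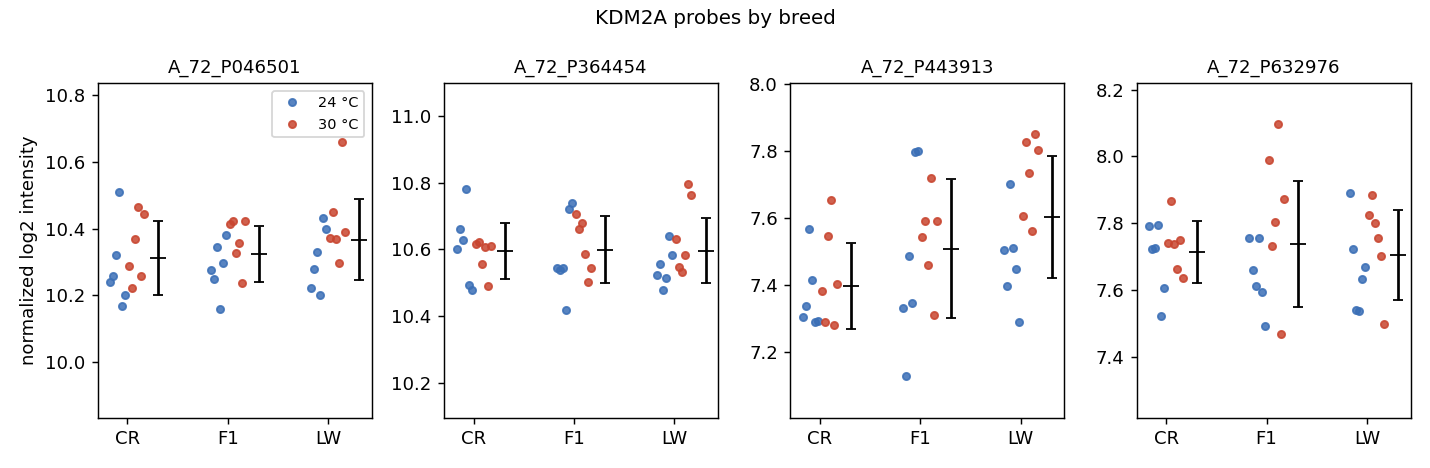
Normalized log2 intensity (vertical axis) of the 4 KDM2A probes by breed, 1 point per pig, with blue for 24 °C and red for 30 °C, and with the mean and SD over the 12 pigs of a breed as black bars. A_72_P443913 climbs from a mean of 7.40 in CR to 7.60 in LW, and the other 3 probes stay level.

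The rest of the members did not pass in any breed comparison. KDM5B was higher in LW than in CR on both tested probes, by 0.13 (adjusted p = 0.106, limma) and 0.11 (adjusted p = 0.291, limma), and its F1 pigs lay 0.15 below LW on both. On A_72_P299239 the CR pigs ran from 12.49 to 12.94, the F1 pigs from 12.52 to 13.16 and the LW pigs from 12.71 to 13.38. KDM1A differed between LW and CR by -0.02 to 0.09, KDM5C by 0.01 to 0.05, KDM4A by -0.02 to 0.00, KDM3A by -0.10 and KDM6B by -0.09. Between F1 and CR 0 of the 19 probes passed, beside 3.38% of all tested probes, with 0 at an unadjusted p under 0.05, beside 17.2% of the array. Between F1 and LW 0 passed, beside 1.99% of all tested probes, with 3 at an unadjusted p under 0.05, beside 13.4% of the array. The 19 probes differed by -0.09 to 0.11 between F1 and CR and by -0.15 to 0.03 between F1 and LW.

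The enzymes that work with or against the 8 genes were read from lists of known function, each gene by its brightest tested probe. Of 111 listed genes 77 had a tested probe. Between LW and CR 13 of the 77 were called, which is 16.9% beside the 12.9% of the array, 10 of them higher and 3 lower in LW. Between F1 and CR 7 were called, which is 9.09% beside the 3.38% of the array. Between F1 and LW 1 was called, which is 1.3% beside 1.99%. The shares of the array count every tested probe, while each listed gene counts once by its brightest probe. The shares are therefore of unlike units, and nothing is read from their gaps.

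Among the other lysine demethylases, 2 of 9 genes differed between LW and CR. PHF2, a JmjC protein tied to lysine 9 of histone H3, had the largest difference of any listed gene. Its single probe ran from 10.18 to 11.16 in CR with a median of 10.80, from 9.01 to 11.19 in F1 with a median of 10.42, and from 8.92 to 10.37 in LW with a median of 9.13. Most LW pigs thus lay below every CR pig and 2 lay among them, while F1 spanned both. LW minus CR was -1.44 ± 0.18 (SE) (limma, adjusted p = 9.42e-07), and F1 was 1.09 ± 0.18 above LW (limma, adjusted p = 0.000566). KDM6A, the X-linked relative of KDM6B, was 0.27 ± 0.08 (SE) higher in LW than in CR (limma, adjusted p = 0.0168). It ran from 8.50 to 8.80 in CR and from 8.39 to 9.34 in LW, and the other of its 2 probes had the same sign and did not pass.

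The partners of KDM1B, among them GLYR1, which binds it on chromatin, and the lysine 9 methyltransferases EHMT1 and EHMT2, gave 0 calls of 5 genes in each comparison (limma), with 0 at an unadjusted p under 0.05. In the complex around KDM1A, 3 of 11 genes were called between LW and CR. Among them the histone deacetylase HDAC2 was 0.35 ± 0.07 lower in LW and its relative HDAC1 was 0.13 ± 0.03 higher (SE). HDAC2 had a single tested probe. The HDAC1 call was lost when the median signal was scaled to the 75th percentile, with a difference of 0.10 (adjusted p = 0.0685, limma), and with the processed signal, with one of 0.08 (adjusted p = 0.236, limma). Of 12 genes that add methyl groups to lysine 4 or serve that complex, 1 was called. This was CXXC1, the subunit that binds unmethylated CpG, which was 0.51 ± 0.09 (SE) higher in LW on its single tested probe. CXXC1 was uneven in CR, from 8.92 to 10.08 with an SD of 0.35, beside 9.79 to 10.26 with an SD of 0.14 in LW. Of the 11 other histone methyltransferases SMYD2, which also methylates proteins other than histones, was called, 0.24 ± 0.07 (SE) higher in LW. Its call was lost with the processed signal (adjusted p = 0.052, limma) and without slide 5 (adjusted p = 0.0773, limma).

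The supply of FAD, the cofactor of KDM1B and KDM1A, gave calls in both directions among its 3 tested genes. RFK, the kinase that turns riboflavin into FMN, was 0.26 ± 0.08 (SE) higher in LW than in CR on its single tested probe. It ran from 10.47 to 11.10 in CR and from 10.66 to 11.30 in LW. FLAD1, which makes FAD from FMN, was 0.31 ± 0.06 (SE) lower in LW. It ran from 12.54 to 12.95 in CR and from 12.20 to 12.77 in LW, and 1 of its 3 probes went the other way. Of 12 genes of DNA methylation 3 were called, all higher in LW. They were the methyl-CpG-binding family members MBD1, by 0.68, and MBD3, by 0.27, and the DNA glycosylase TDG, by 0.19. MBD3 and TDG each had a single tested probe. MBD1 was uneven in CR, where it ran from 8.20 to 10.51 with a median of 9.80 and an SD of 0.77. In LW it ran from 10.28 to 10.69 with an SD of 0.11, so some CR pigs lay within the LW range while others lay far below it. Of 14 genes of the hypoxia response EGLN2, an oxygen sensor, was called, 0.29 higher in LW.

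**Figure D4:**
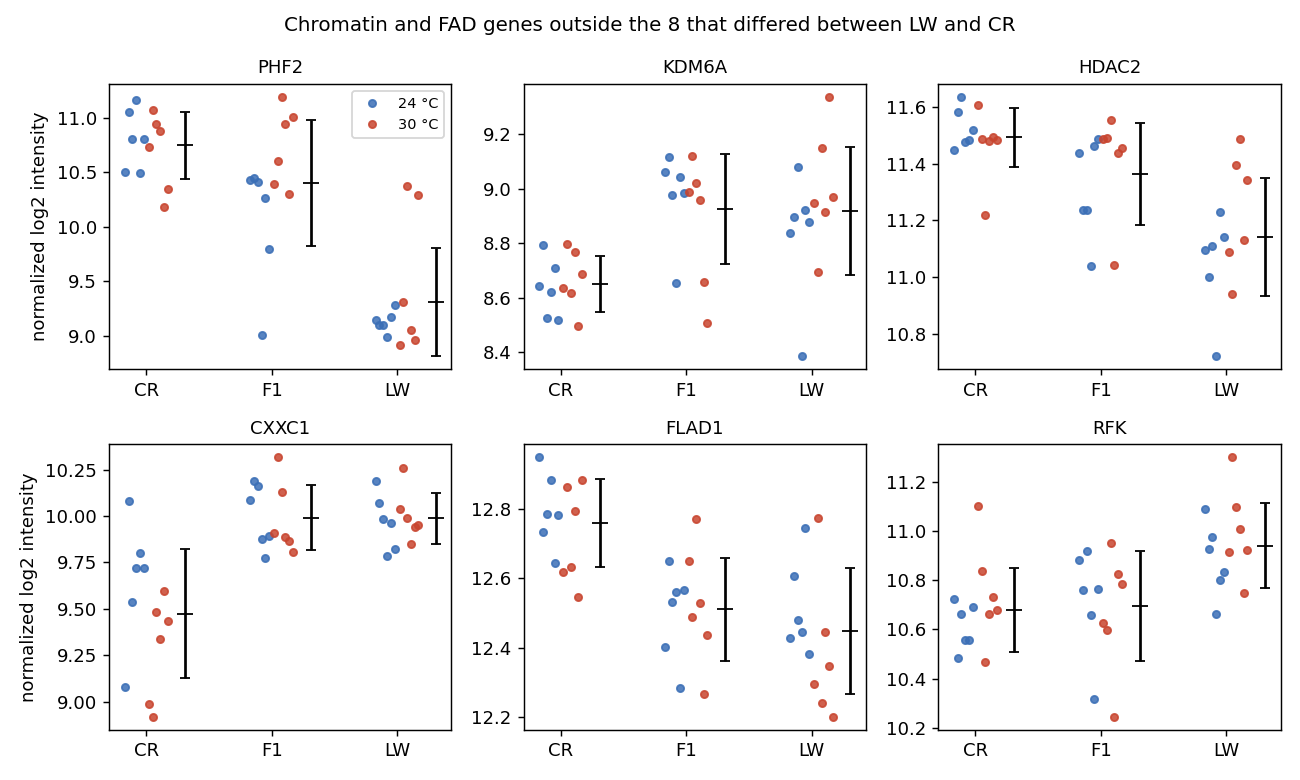
Normalized log2 intensity (vertical axes, each panel with its own range) of 6 genes outside the 8 that differed between LW and CR, by breed, 1 point per pig, with blue for 24 °C and red for 30 °C, and with the mean and SD over the 12 pigs of a breed as black bars. PHF2 falls from a mean of 10.75 in CR to 9.31 in LW, and KDM6A, CXXC1 and RFK lie higher and HDAC2 and FLAD1 lower in LW.

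Between temperatures 3 of the 77 genes were called, beside 1.18% of all tested probes. They are given as values only, each from a single tested probe. ZMYM3, a member of the complex around KDM1A, was 0.18 ± 0.05 (SE) higher at 30 °C, with cool pigs from 8.89 to 9.33 and hot pigs from 8.89 to 9.58, and kept its call when any one of 13 of the 36 pigs was left out but not without any of the others. It also lost the call under 3 of 11 other alternatives, which were the scaled median signal, the model without the breed term and the omission of slide 5, with adjusted p values from limma up to 0.0913. UHRF1, which guides the maintenance of DNA methylation after replication, was 0.71 ± 0.09 lower, with cool pigs from 5.88 to 7.30 and hot pigs from 5.34 to 6.10. EZH2, the lysine 27 methyltransferase, was 0.45 ± 0.09 lower, with cool pigs from 7.95 to 9.05 and hot pigs from 7.71 to 8.47. Both are best known from dividing cells.

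Over the 36 arrays, with the mean of each group removed, the genes most like O4851 among 12746 named genes were LOC100156899 (r = 0.66), a locus with no gene name, BNC2 (0.60), LGALS12 (0.57), FAM190B (0.57) and USF2 (0.56). The least like it were LRRC26 (r = -0.66), CALY (-0.64) and HIP1 (-0.61). These are the extremes of many correlations and are given as a description. None of the 8 differed between temperatures by more than 0.11 on the log2 scale in either direction.

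The thyroid's own markers were present. TG, PAX8, FOXE1, SLC5A5 and DUOX2 were well above background on all 36 arrays, and of the tissue's 12 listed markers DIO1 and SLC26A4 had probes that were so on 0 arrays, while NKX2-1 was not matched to a probe by name. Most of the listed marker genes of dividing cells moved with temperature beside O4851. Of 6 such genes 4 were called, beside 1.18% of all tested probes. These were TOP2A, CDK1, CCNB1 and RRM2, with differences from -1.45 to -1.18. MKI67 differed by 0.04 and BUB1 by -0.05 on their brightest probes, and neither was called. The mean log2 level of all 6 genes ran from 8.63 to 10.35 in the cool pigs and from 8.03 to 9.16 in the hot pigs. Of 3 erythroid markers HBB was called, 1.00 lower at 30 °C. Between LW and CR 3 of 5 adipocyte markers were called lower in LW and 3 of 5 endothelial markers were called higher, beside 12.9% of all tested probes. The part of these cells in any result above was not tested. In whole tissue, fewer cells of a kind and less RNA per cell cannot be told apart.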

How the data were processed

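The deposited scanner files give each spot's median and mean pixel intensity, its local background intensity and a processed intensity, as written by Agilent Feature Extraction 10.10.1.1. The authors quantile-normalized the median intensity without background subtraction and deposited log2 values for 46097 probes. Here the same values were rebuilt from the scanner files after 1319 control spots per array were dropped and 106 non-uniform spots set to missing. The rebuilt values differed from the deposited log2 values by a median of 0.0056.

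Tests covered the 46222 probes whose spot was well above background on 5 or more arrays of some group. The 36 arrays lay on 5 slides, 72.8% to 80.3% of the spots of an array were well above background, and 0 were saturated. The number of arrays limits the precision, as does the number of litters within each breed.

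limma 3.58.1 in R 4.3.3 was fitted over all 36 arrays, with terms for breed and temperature, or with the 6 group means for changes within breeds and the interaction. P values were adjusted by Benjamini-Hochberg over the tested probes, and "called" means an adjusted p below 0.05. The 95% intervals use the model's SE and the residual degrees of freedom. The fit was checked on simulated data. Pen, slaughter day, sire and dam, which the study modelled, are not in the labels and were not used. Names came from the scanner files and RefSeq (Sscrofa11.1): of the tested probes 18922 matched by symbol, 2035 by accession and 182 by synonym, 3378 kept the file's name and 21705 had none.

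All member probes are counted and KDM1B is given probe by probe. Other members are given by their brightest tested probe, and exceptions are said to be so. From each other list at most 3 called genes per direction are named, and for likeness the 5 highest and 3 lowest. Some listed genes are not reported here. The members and lists were chosen with earlier results of these data known.

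Alternatives were other scalings and background corrections, the deposited values, other filters, slide or slide position as a block, omission of slide 5 or of each pig, and narrower models.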

Additional observations from a re-analysis of the deposited data

Results flagged for a closer look

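In 4 of 114 groups of 6 pigs, formed by the 19 tested member probes and the 6 groups, the highest or lowest pig stood apart from the other 5. Chance alone sets apart about 1 in 20 such groups. Replicate 6 of CR at 24 °C had a KDM3A log2 intensity of 5.78 on O13280, next to 5.93 in the nearest pig. Replicate 5 of LW at 30 °C had a KDM4A log2 intensity of 6.38 on A_72_P668107, next to 6.77. Replicate 1 of CR at 30 °C had a KDM5B log2 intensity of 12.49 on A_72_P299239, next to 12.79. Replicate 4 of F1 at 30 °C had a KDM6B log2 intensity of 12.39 on O12836, next to 12.23. The 4 values came from 4 different pigs, and no KDM1B probe was among them.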

How the results depend on the processing

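The heat difference of O4851 stayed between 0.38 and 0.42 when each pig was left out in turn and between 0.40 and 0.46 under 11 other alternatives. Its difference between LW and CR lay between 0.03 and 0.09 under all of them and was never called, and neither was its interaction. With 1 pig left out, the number of member probes called for heat ran from 1 to 2: without replicate 1 of F1 at 30 °C, A_72_P668107 of KDM4A was called too. The number called between LW and CR ran from 0 to 1. It was 0 with the median signal and 0 with the processed signal scaled to the 75th percentile, where A_72_P443913 of KDM2A had adjusted p values of 0.0528 and 0.0645. No member was called between F1 and CR, between F1 and LW or for the interaction under any alternative run.

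Differences near 0 changed sign. That of KDM2A on A_72_P364454 between LW and CR was -0.013 with the median signal scaled and -0.0078 without slide 5, and ran from -0.017 to 0.019 with 1 pig left out. That of KDM5C on A_72_P036016 was -0.013 with the median signal scaled, -0.021 with the processed signal, -0.0044 with normexp, -0.0050 with slide as a block, -0.0005 with slide position as a block and -0.0051 without slide 5, and ran from -0.0095 to 0.024 with 1 pig left out. That of KDM4A on A_72_P305249 ran from -0.043 to 0.0066. HDAC1 and SMYD2 each lost their call between LW and CR under 2 alternatives. ZMYM3 lost its heat call under 3. For the faint probes, the heat difference of A_72_P476198 of KDM1B ran from 0.07 to 0.27 and that of UHRF1 from -1.28 to -0.46 over the alternatives other than the omission of pigs. The causes were not tested.

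No paired analysis was possible because the labels name no litters or parents. They carry no replicate numbers either, and the numbers used here only name the pigs. Both A_72_P476198 and O13280 lie close to background, which limits what a change in them can show.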

Other observations

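A further tested probe, A_72_P184436, matched KDM3A through its transcript accession and carries no gene symbol on the array, so it was not counted among the 22. It was well above background on all 36 arrays. It differed by 0.02 ± 0.03 between temperatures and by -0.12 ± 0.04 between LW and CR (SE; limma, adjusted p = 0.0542), the same sign as the member probe O13280 of KDM3A.
Of the listed genes around the 8, KDM2B, CTBP1, SETD1B and DOT1L had a single probe each that was well above background on 6, 14, 14 and 7 of the 36 arrays, and INSM1 and ANKRD37 had one that was so on 0. No comparison was made for them.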
